A study of Mus musculus with 6 samples.

Results

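The genes described here encode scaffolds, calcium-dependent kinases and adhesion proteins, most of them of the postsynaptic side of synapses. The neurexins among them are presynaptic partners, and Camk4 is a nuclear kinase. They were 35 genes taken by symbol from the count table of 24421 genes: 4 Dlg genes, 4 Dlgap genes, 3 Shank genes, Homer2 and Homer3, 6 CaM kinase and protein kinase C genes, the calcineurin gene Ppp3ca, 4 regulators and adaptors (Kalrn, Baiap2, Anks1b and Agap2), 3 neuroligins, 2 neurexins, 4 Lrrtm genes and 2 Lrfn genes. All 35 symbols were found, and 34 passed the filter on low counts and were tested. Homer3, which did not pass, was also the only gene of the 35 whose exons overlapped another gene model, Ddx49 on the opposite strand, over 35.7% of its exon length.

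RNA was sequenced from sorted nuclei of Foxp2-Cre mice, taken from the medial prefrontal cortex (mPFC) 4 weeks after a virus carrying GFP with a KASH domain, which holds a protein at the nuclear envelope, had been injected on both sides. There were 3 libraries from mice given CFA (complete Freund's adjuvant, an oil emulsion of killed mycobacteria that causes inflammation and pain) and 3 from mice given saline. All mice, controls included, carried the Cre allele and received the virus, and the labels state no age, sex, interval between CFA and collection, or pooling of animals. Because the labels do not say that replicates came from separate animals, p-values measure only library-to-library spread, part of which may be technical.

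Total counts were 10663201 to 11850741 in CFA libraries and 9673038 to 11117681 in saline libraries. Values are CPM, library-scaled counts adjusted by TMM factors. Slc17a7, the vesicular glutamate transporter of cortical excitatory neurons, averaged 2279 ± 357 CPM in the CFA libraries and 2144 ± 177 CPM in the saline libraries (SD, n = 3 each). Foxp2 itself averaged 29.2 ± 5.50 CPM in CFA and 33.8 ± 8.61 CPM in saline. Gad1, an enzyme of GABA synthesis that marks inhibitory neurons, averaged 64.9 ± 18.8 CPM in the CFA libraries and 60.2 ± 12.4 CPM in the saline libraries. Gad1 was thus above Foxp2 in CPM, which is not scaled by exon length. Summed levels of microglia markers were 84.2 to 122 CPM in the CFA libraries and 63.9 to 92.8 CPM in the saline libraries. Those of striatal projection neuron markers were 210.3 to 392 CPM in CFA and 308 to 852 CPM in saline. Oligodendrocyte precursor markers summed to 30.8 to 43.7 CPM in CFA and 18.4 to 27.6 CPM in saline, without overlap. Astrocyte markers summed to 465 to 655 CPM in CFA and 468 to 538 CPM in saline. At an unadjusted p under 0.05 (quasi-likelihood test in edgeR), 2 of 5 precursor, 3 of 8 astrocyte and 1 of 7 microglia markers were higher, against 1.35% of all genes. These lists did not move as 1, since 4 astrocyte, 1 precursor and 1 microglia markers had a negative log2 fold change. Of 7 striatal markers 5 were lower, as were 1 of 6 layer 6 corticothalamic and 1 of 8 inhibitory neuron markers, against 1.87% of all genes. None of these passed adjustment. By sign of the log2 fold change, 5 of the 6 layer 6 markers and 1 of the 8 inhibitory markers were negative. These values are for whole libraries of nuclei, so fewer cells of a type and less RNA per cell cannot be told apart.

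At an excitatory synapse, MAGUK scaffolds of the Dlg family hold glutamate receptors at the membrane through PDZ domains. Dlgap proteins (also called SAPAP) join the Dlg layer to Shank proteins, and Shank binds Homer and the actin cytoskeleton. Calcium entering through the receptors acts on CaM kinase II, protein kinase C and calcineurin. Neuroligins and Lrrtm proteins cross the cleft to bind presynaptic neurexins.

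The level of these genes per exon length spanned a wide range and followed a similar order in every library. Camk2b, the beta subunit of CaM kinase II, was the highest of the 35 at 205 CPM per kb of exon (mean of 6 libraries, range 189 to 227). Ppp3ca, the catalytic alpha subunit of calcineurin, followed at 169 CPM per kb (131 to 199), so its range overlapped that of Camk2b. Baiap2 and Prkcb were both at 119.7 CPM per kb, with ranges of 108 to 138 and 111 to 146. The lowest tested genes were Shank3 at 2.36 CPM per kb and Agap2 at 1.80 CPM per kb. Homer3 was at 0.329 CPM per kb.

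**Figure D1:**
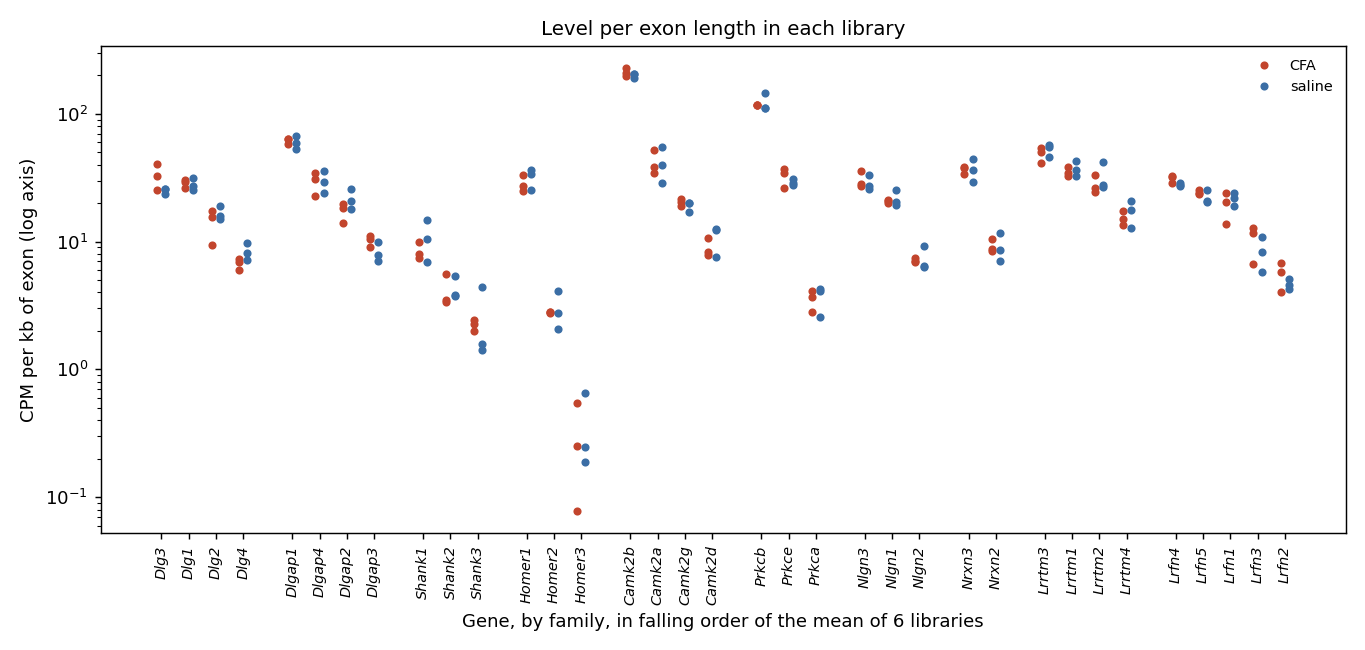
Level of the genes that have paralogues among those described (Dlg to Lrfn, left to right) in CPM per kb of exon (log axis) in the 3 CFA libraries (red) and the 3 saline libraries (blue), grouped by family, with Homer1, Camk2d, Prkce, Lrfn1, Lrfn3 and Lrfn4, which are outside the 35 genes, for scale. Camk2b stood above the other Camk2 genes in all 6 libraries, and the CFA and saline points of a gene mostly lay together.

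Within families the order was mostly fixed. In the Camk2 family the ranges over 6 libraries did not overlap: Camk2b was 3.72 to 6.53 times Camk2a in the same library, Camk2a averaged 41.3 CPM per kb and Camk2g 19.6 CPM per kb. Dlgap1, at 60.6 CPM per kb, was above Dlgap4 (29.4), Dlgap2 (19.4) and Dlgap3 (9.26) in all 6 libraries. Nlgn3 (29.5 CPM per kb) was above Nlgn1 (21.1), and both were above Nlgn2 (7.25), the neuroligin of inhibitory synapses. Nrxn3 (36.6 CPM per kb) was above Nrxn2 (9.16) in all 6 libraries. Among Lrrtm genes, Lrrtm3 led at 50.7 CPM per kb, then Lrrtm1 (36.1), Lrrtm2 (30.1) and Lrrtm4 (16.2); the ranges of the first 3 overlapped pairwise in that order, although each was above the next in 6 of 6 libraries. Dlg3 (28.9 CPM per kb) and Dlg1 (28.4) did not have a fixed order, since Dlg3 was the higher in 2 of 6 libraries. Dlg4, which encodes PSD-95, was the lowest Dlg gene at 7.56 CPM per kb (6.01 to 9.81). Shank1 (9.59 CPM per kb) was above Shank2 (4.22) in every library, and Shank2 above Shank3.

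CFA and saline libraries were compared to ask whether transcripts of these genes differ between the pain and control conditions. No member passed the test. Of 34 members tested, 0 were called at an adjusted p of 0.05 by the quasi-likelihood test in edgeR (Benjamini-Hochberg adjustment over 13560 genes), where the share over all genes was 0%. None of the members (0) had an unadjusted p under 0.05 either, against 3.22% of all genes tested (1.35% higher and 1.87% lower in CFA), and DESeq2, limma-voom and edgeR's likelihood ratio test each gave 0 members by either measure. Over all genes these tools called 5, 0 and 11 genes at an adjusted p of 0.05 and had 3.37%, 3.46% and 3.75% at an unadjusted p under 0.05. The log2 fold changes (CFA minus saline) ran from -0.33 (Agap2 and Shank1) to 0.39 (Dlg3), with 14 positive and 20 negative, where 49.8% of all genes were positive. Their median was -0.05, against -0.0011 over all genes tested, and it was 0.051 without saline replicate 3, so its sign rested on that library.

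The size of the differences was bounded by the spread of the libraries. The 95% interval of the log2 fold change included 0 for all 34 members and lay within 1 on either side of 0 for 33. For 13 members it lay within 0.5 on either side. Agap2, the member with the second lowest level after Homer3, was the exception, with an interval from -1.13 to 0.47. The intervals of Camk2b (-0.26 to 0.44), Dlgap1 (-0.32 to 0.39) and Dlg1 (-0.33 to 0.39) were among the narrowest. Members were more abundant than most genes, with a median level of 117 CPM against 31.4 CPM over all genes tested.

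**Figure D2:**
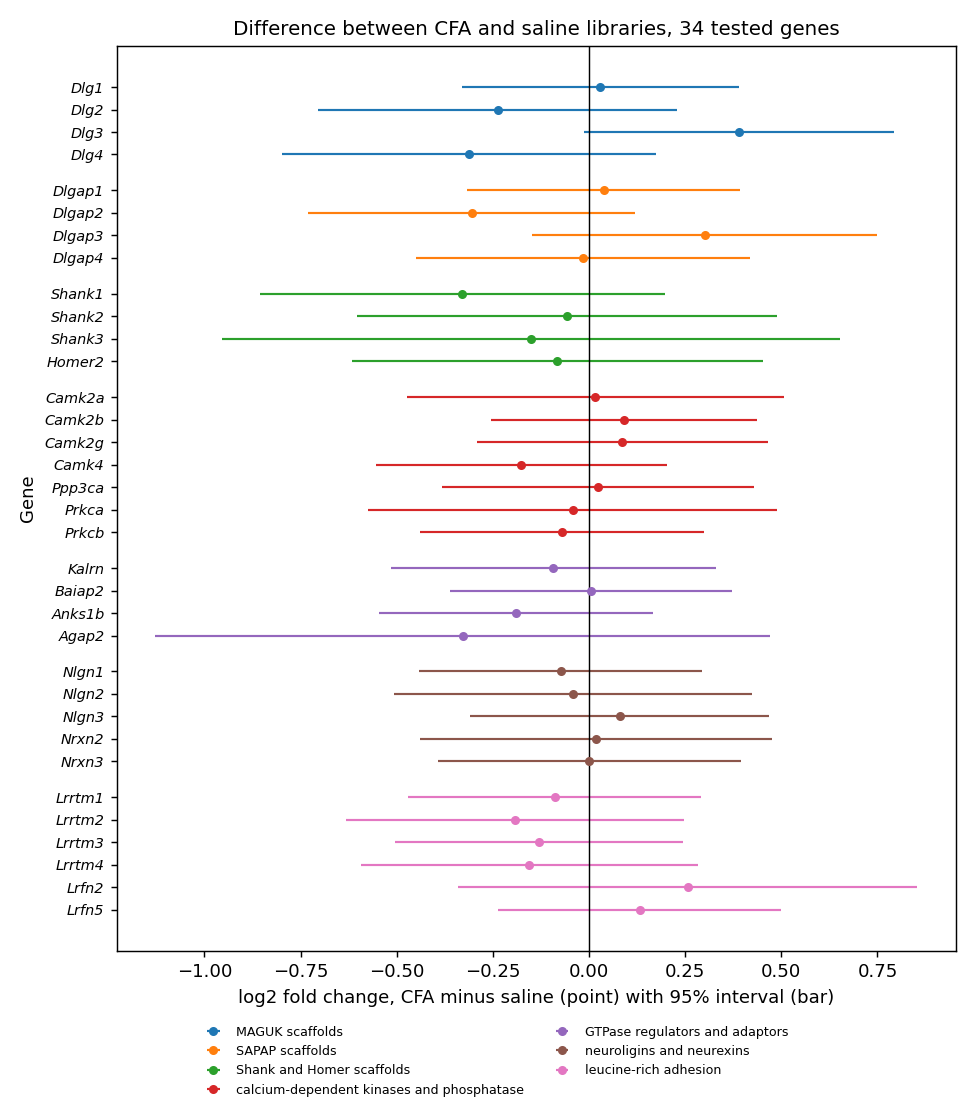
Log2 fold change (CFA minus saline, point) with its 95% interval (bar) from edgeR's quasi-likelihood fit for the 34 tested genes, coloured by role. Every interval includes 0, the point farthest right is Dlg3 at 0.39, and the widest intervals belong to Shank3 and Agap2.

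The membrane-associated scaffolds did not move as a family. Dlg3, which encodes SAP102 (chromosome X, 100767722 to 100818410, mm10), had the smallest p of the 34. Its level was 227, 143 and 184 CPM in CFA replicates 1 to 3, against 134, 145 and 145 CPM in saline replicates 1 to 3. CFA replicates 1 and 3 were above all saline libraries, and CFA replicate 2 lay among them, so the groups overlapped. The log2 fold change was 0.39 ± 0.19 (SE), with an unadjusted p of 0.0573 and an adjusted p of 0.99997 by the quasi-likelihood test in edgeR. Without CFA replicate 2 it was 0.54, with an unadjusted p under the threshold of 0.05, and without CFA replicate 1 it was 0.21.

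The other Dlg genes were level or lower in CFA, within the spread of the libraries. Dlg2 (PSD-93) was at 139, 125 and 75.3 CPM in the CFA libraries, against 119.9, 128 and 152 CPM in the saline libraries. The low value belonged to CFA replicate 3 alone, and without that library the log2 fold change was -0.011. Dlg4 was at 23.0, 24.2 and 20.0 CPM in the CFA libraries, against 27.2, 23.8 and 32.6 CPM in the saline libraries, giving a log2 fold change of -0.31 ± 0.23. CFA replicate 2 overlapped saline replicate 2 by a small margin. Dlg1 (SAP97) averaged 159 ± 11.4 CPM in the CFA libraries and 156 ± 17.0 CPM in the saline libraries.

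Because the 4 Dlg genes are paralogues, the share of each in the family's summed level per kb was also compared, a measure in which the scaling of a library cancels. Dlg3 made up 39.6% ± 4.80 of the family in CFA and 32.2% ± 2.02 in saline libraries. The groups did not overlap, but CFA replicate 2 (34.1%) and saline replicate 2 (33.7%) were almost equal. Dlgap3 likewise made up 8.64% ± 0.341 of its family in CFA and 6.95% ± 0.577 in saline libraries, without overlap. These were the 2 of 25 shares without overlap over the 8 families for which shares were taken, 8% of them, where 7.51% of all genes tested had groups without overlap in CPM, and the shares carry no test.

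Among Dlgap genes the differences went both ways. Dlgap1, the most abundant (chromosome 17, 70424792 to 70821413), was at 461, 504 and 505 CPM in the CFA libraries, against 426, 532 and 474 CPM in the saline libraries. The saline libraries spanned the CFA values. Dlgap3 (chromosome 4, 127169204 to 127237022), known in mice for compulsive grooming when deleted, was at 45.8, 39.6 and 48.6 CPM in the CFA libraries, against 31.0, 34.5 and 43.4 CPM in the saline libraries. Only saline replicate 3 reached into the CFA range. The log2 fold change was 0.30 ± 0.21, and it was 0.45 without saline replicate 3, with an unadjusted p under 0.05, and 0.20 without saline replicate 1. Dlgap2 had the opposite sign, at 78.1 ± 13.9 CPM in the CFA libraries and 96.5 ± 17.8 CPM in the saline libraries, giving a log2 fold change of -0.31 ± 0.20. Dlgap4 averaged 172 ± 34.6 CPM in CFA and 174 ± 35.2 CPM in saline.

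Shank and Homer genes were the part of the complex that varied most between control libraries. Shank1 (chromosome 7, 44310264 to 44358353) was at 76.0, 60.6 and 57.0 CPM in the CFA libraries, against 52.3, 79.2 and 112 CPM in the saline libraries. Saline replicate 1 was below and saline replicate 3 above every CFA library. The log2 fold change was -0.33 ± 0.25, and it rested on single libraries, at -0.025 without saline replicate 3 and -0.57 without saline replicate 1, the second with an unadjusted p under 0.05. Shank3, whose loss in mice alters striatal and cortical synapses (chromosome 15, 89499857 to 89560260), was at 14.2, 17.5 and 16.1 CPM in the CFA libraries, against 11.4, 10.2 and 31.5 CPM in the saline libraries. Its CFA values lay close together between the 2 low saline libraries and the high one, so that the log2 fold change of -0.15 ± 0.38 was 0.56 without saline replicate 3. Homer2, a partner of group I metabotropic glutamate receptors, was at 31.6, 30.8 and 31.3 CPM in the CFA libraries, against 22.9, 30.8 and 45.6 CPM in the saline libraries. Shank2 averaged 29.1 ± 8.48 CPM in the CFA libraries and 30.3 ± 6.61 CPM in the saline libraries. Homer3 averaged 0.714 ± 0.576 CPM in the CFA libraries and 0.894 ± 0.625 CPM in the saline libraries, near the 0.25 to 0.304 CPM that 3 counts amount to, and no fold is given.

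**Figure D3:**
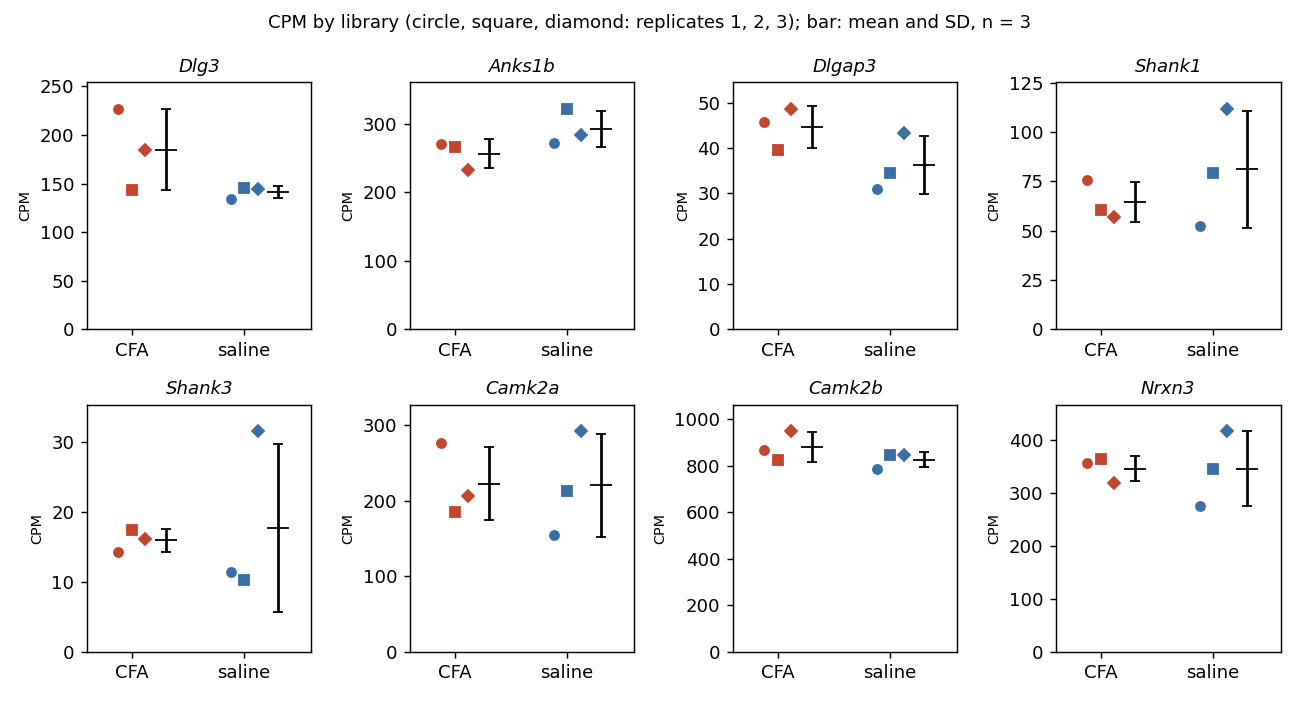
CPM of 8 genes in each library, with CFA (red) left of saline (blue), replicates 1, 2 and 3 as circle, square and diamond, and the mean and SD (n = 3) in black. Dlg3 and Dlgap3 average higher in CFA but overlap, the 2 groups of Anks1b nearly touch, and saline replicate 3 is the highest point for Shank1, Shank3, Camk2a and Nrxn3.

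No CaM kinase differed beyond the spread of the libraries. Camk2b (chromosome 11, 5969666 to 6065748) was at 867, 823 and 948 CPM in the CFA libraries, against 787, 845 and 845 CPM in the saline libraries, giving a log2 fold change of 0.09 ± 0.16. Camk2a, the alpha subunit that is the classical marker of forebrain excitatory neurons, was at 277, 186 and 206 CPM in the CFA libraries, against 155, 213 and 292 CPM in the saline libraries. The saline libraries spanned all CFA values of Camk2a, and its log2 fold change was 0.02 ± 0.23. Within the Camk2 family, Camk2b held 74.9% ± 2.67 of the summed level per kb in CFA and 73.8% ± 3.38 in saline libraries, and Camk2a held 14.7% ± 2.73 in CFA and 15.1% ± 3.57 in saline. Camk2g averaged 74.8 ± 4.81 CPM in CFA and 70.5 ± 6.66 CPM in saline. Camk4, the nuclear CaM kinase that phosphorylates CREB, averaged 128 ± 5.65 CPM in CFA and 144 ± 25.6 CPM in saline, giving a log2 fold change of -0.18 ± 0.18.

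The same held for calcineurin and protein kinase C. Ppp3ca was at 781, 758 and 938 CPM in the CFA libraries, against 836, 967 and 637 CPM in the saline libraries, and the saline libraries spanned the CFA values. Prkcb (chromosome 7, 122289125 to 122634401), one of the conventional, calcium-dependent isoforms, was at 1029, 1038 and 1025 CPM in the CFA libraries, against 981, 1289 and 979 CPM in the saline libraries. All CFA values of Prkcb lay above saline replicates 1 and 3 and below saline replicate 2. Prkca was far lower, at 29.5 ± 5.30 CPM in the CFA libraries and 30.4 ± 7.75 CPM in the saline libraries.

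Among the regulators of the actin cytoskeleton and the adaptors, Anks1b was the 1 member of 34 whose groups did not overlap, lower in CFA, where 3.97% of all genes were lower and 3.55% higher without overlap, 7.51% together. Anks1b (chromosome 10, 89873509 to 90972984) encodes AIDA-1, a postsynaptic protein that binds PSD-95. Its level was 269.8, 266 and 232 CPM in the CFA libraries, against 271, 322 and 284 CPM in the saline libraries. CFA replicate 1 and saline replicate 1 were almost equal, and with library size alone as scaling the groups overlapped. The log2 fold change was -0.19 ± 0.17, with an unadjusted p of 0.272 by the quasi-likelihood test in edgeR. Baiap2 (IRSp53, a scaffold of the actin cytoskeleton) averaged 433 ± 33.9 CPM in the CFA libraries and 431 ± 58.7 CPM in the saline libraries. Kalrn, a guanine nucleotide exchange factor of dendritic spines, averaged 207 ± 13.3 CPM in CFA and 221 ± 59.4 CPM in saline. Agap2, a GTPase-activating protein, was at 8.82, 11.1 and 7.02 CPM in the CFA libraries, against 6.98, 10.0 and 16.9 CPM in the saline libraries, with the saline libraries again spanning the CFA values.

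Adhesion genes showed no shared direction. Of 5 neuroligins and neurexins, 3 had a positive and 2 a negative log2 fold change, all between -0.07 (Nlgn1) and 0.08 (Nlgn3). Nrxn3 (chromosome 12, 88794504 to 90334933), the longest member, was at 356, 364 and 318 CPM in the CFA libraries, against 276, 345 and 417 CPM in the saline libraries, with means of 346 ± 24.2 CPM in CFA and 346 ± 70.5 CPM in saline. Nlgn2 averaged 35.7 ± 1.32 CPM in the CFA libraries and 36.8 ± 8.43 CPM in the saline libraries. Its 3 CFA libraries lay between saline replicates 1 and 2 below and saline replicate 3, at 46.5 CPM, above. Nlgn1 averaged 117 ± 3.54 CPM in CFA and 123 ± 18.2 CPM in saline, Nlgn3 averaged 118 ± 17.3 CPM in CFA and 112 ± 15.8 CPM in saline, and Nrxn2 averaged 61.4 ± 7.66 CPM in CFA and 60.7 ± 15.4 CPM in saline.

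The 4 Lrrtm genes, postsynaptic partners of neurexins, all had a negative log2 fold change, between -0.09 (Lrrtm1) and -0.19 (Lrrtm2), none past the threshold. Lrrtm3 (chromosome 10, 63928497 to 64090255) was at 159.6, 206 and 194 CPM in the CFA libraries, against 178, 221 and 213 CPM in the saline libraries. The groups overlapped through saline replicate 1. Lrrtm1 averaged 88.2 ± 7.48 CPM in the CFA libraries and 93.8 ± 13.5 CPM in the saline libraries, Lrrtm2 averaged 159.5 ± 26.5 CPM in CFA and 182 ± 47.4 CPM in saline, and Lrrtm4 averaged 74.4 ± 9.84 CPM in CFA and 82.9 ± 19.2 CPM in saline. Saline replicate 2, at 237 CPM, was the highest library for Lrrtm2. The Lrfn genes (also called SALM) had positive values, 0.26 ± 0.28 for Lrfn2 and 0.13 ± 0.17 for Lrfn5. The value of Lrfn2 was 0.078 without CFA replicate 1, its highest library, and 0.44 without CFA replicate 2, its lowest. Lrfn2 averaged 16.7 ± 4.16 CPM in CFA and 13.9 ± 1.36 CPM in saline, and Lrfn5 averaged 90.4 ± 3.13 CPM in CFA and 82.5 ± 10.1 CPM in saline.

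The larger contrast in these genes lay among the saline libraries. Saline replicate 3 was the highest of the 6 libraries for 15 of 34 members (44.1%, against 23.9% of all genes tested), and saline replicate 1 was the lowest for 13 (38.2%, against 18.4%). The 15 included Shank1, Shank3, Homer2, Dlg4, Camk2a, Kalrn, Agap2, Nlgn2, Nrxn2 and Nrxn3. Shank3 in saline replicate 3 was 2.27 times, Agap2 1.93 times and Shank1 1.72 times the mean of the other 5 libraries. Other members went the other way in that library: it was the lowest for Ppp3ca, Prkcb, Baiap2, Nlgn1, Nlgn3 and Lrrtm1. Saline replicate 2 was the highest for 11 members, among them Prkcb, Ppp3ca, Anks1b, Nlgn1 and Lrrtm1 to Lrrtm3.

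The median deviation from a gene's mean over the 6 libraries (log2 CPM) showed the same by role. For the 4 tested Shank and Homer genes it was 0.60 in saline replicate 3 and -0.44 in saline replicate 1. In CFA replicates 1 to 3 it was 0.057, -0.13 and -0.15. For the 7 kinase and calcineurin genes it stayed between -0.10 and 0.063 in all 6 libraries, but single genes moved more. Camk2a ran from -0.48 in saline replicate 1 to 0.43 in saline replicate 3. Ppp3ca went the other way, at 0.042 in saline replicate 1 and -0.35 in saline replicate 3. Over all genes tested the medians lay between 0.0051 and 0.030, but TMM scaling itself keeps such medians small. The nuclear long non-coding RNAs Malat1, Meg3 and Snhg11 were also at their highest in saline replicate 3. Malat1 took 2.77% of the counts there, against 1.36% to 2.2% in the other libraries and 1.78% in saline replicate 1. Meg3 took 0.775%, against 0.244% to 0.486% in the other libraries and 0.288% in saline replicate 1. Snhg11 took 1.06%, against 0.416% to 0.702% in the other libraries. Saline replicate 1 was the lowest library for Snhg11, as for Shank1 and Homer2, but not for Malat1 or Meg3. Shank2 was lowest in CFA replicate 3 and Shank3 in saline replicate 2. Their part in the levels of Shank and Homer genes was not tested.

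**Figure D4:**
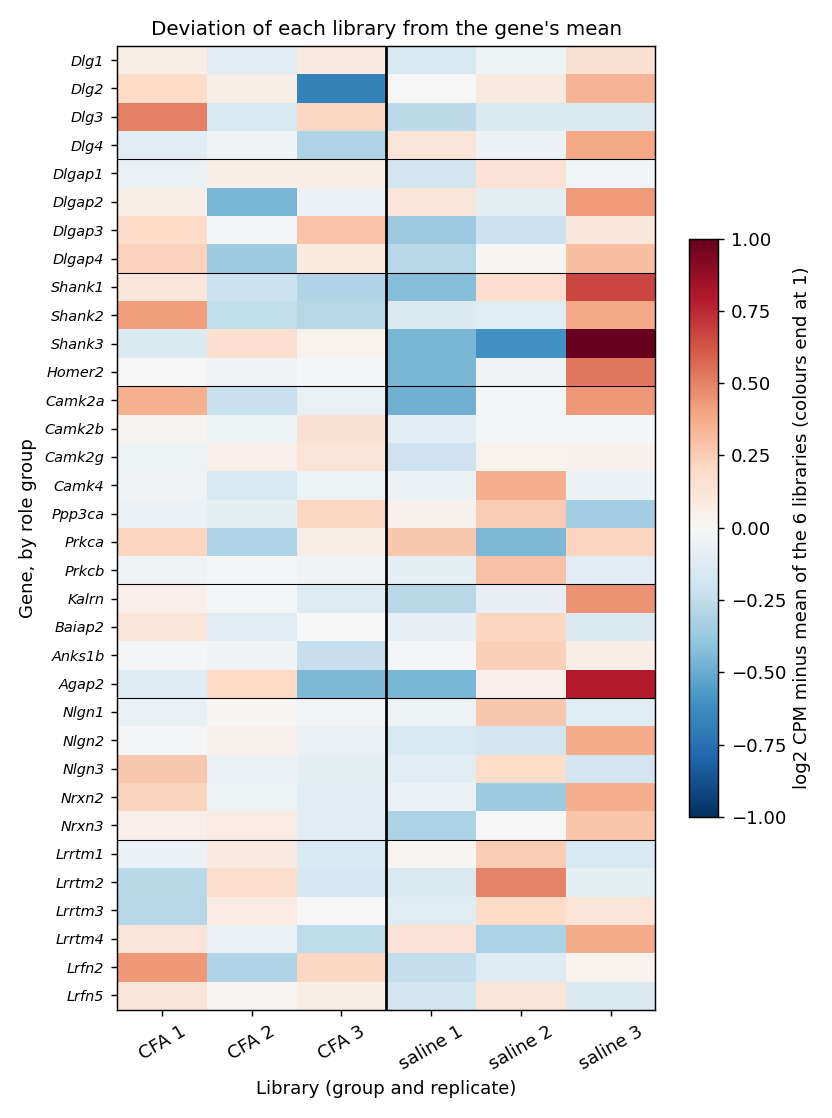
Deviation of each library from the gene's mean of 6 libraries (log2 CPM, colour, ends at 1) for the 34 tested genes, with CFA libraries left of the black line, saline libraries right of it, and lines between role groups. Saline replicate 3 is red for most Shank and Homer genes, where its median deviation was 0.60, and saline replicate 1 is mostly blue.

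The spread within groups was accordingly wider in saline. The median coefficient of variation of a member was 10.3% over CFA and 17.7% over saline libraries, and 27 of 34 members varied more in saline. Over all genes tested the medians were 16.7% in CFA and 22.3% in saline, with 64.5% of genes varying more in saline.

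The members also shared features that the choice of symbols did not use. Their gene models were long, with a median span of 156 kb against 22.9 kb over all genes tested, and 29 of 34 exceeded that median of all genes. Nrxn3, Dlg2 and Anks1b each spanned more than 1 Mb, at 1540, 1358 and 1099 kb. The 17 members of longer span had a median log2 fold change of -0.071, with 11 negative, and the 17 shorter ones a median of -0.015, with 9 negative. The 1102 tested genes with a span at or above the members' median had a median of -0.084, with 688 negative.

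Other genes of the synapse gave 0 calls as well by the quasi-likelihood test in edgeR, where 0% of all genes were called. Their lists, too, were chosen with earlier results of these data known. Of 26 further scaffolds and regulators, 12 were higher and 14 lower by log2 fold change (median -0.13). At an unadjusted p under 0.05 there was 1 (3.85%, against 3.22% of all genes tested). That was Git1, a scaffold that regulates Arf and Rac signalling in spines, at 63.5, 70.5 and 79.8 CPM in the CFA libraries, against 132, 129.5 and 77.5 CPM in the saline libraries, giving a log2 fold change of -0.67 ± 0.21. Saline replicate 3 lay within the CFA range. Magi2, a MAGUK scaffold, was at 112, 138 and 103 CPM in the CFA libraries, against 150.0, 148 and 147 CPM in the saline libraries. Its log2 fold change was -0.34 ± 0.17. Groups did not overlap for 3 of the 26 genes (11.5%, against 7.51% of all genes tested). These were Magi2 and Abi2, lower in CFA, and Cyfip1, higher in CFA.

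Of 21 further calcium-dependent kinases, phosphatases and calmodulin genes, 14 were positive and 7 negative, with a median of 0.077 and 0 at an unadjusted p under 0.05. Camkk1, a kinase upstream of Camk4, averaged 220.3 ± 28.5 CPM in the CFA libraries and 180.0 ± 38.9 CPM in the saline libraries, and Camk2d averaged 77.0 ± 13.1 CPM in CFA and 93.2 ± 24.0 CPM in saline. Of 29 further adhesion genes tested, 19 were positive and 10 negative, with a median of 0.11. As in the kinase list, 0 were at an unadjusted p under 0.05, against 3.22% of all genes tested. Slitrk2 averaged 22.9 ± 5.55 CPM in CFA and 14.7 ± 5.74 CPM in saline, and Il1rapl1 averaged 32.8 ± 12.3 CPM in CFA and 45.4 ± 4.02 CPM in saline.

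Among 11 genes of the inhibitory postsynapse, Nlgn2 included, 1 was at an unadjusted p under 0.05 (9.09%, against 3.22% of all genes tested). Mdga2, a protein that binds neuroligins and keeps them from neurexins, was at 51.7, 57.9 and 50.7 CPM in the CFA libraries, against 69.9, 77.0 and 99.9 CPM in the saline libraries. The groups did not overlap, and all CFA libraries were lower. Mdga2 was the only gene of the 11 without overlap (9.09%, against 7.51% of all genes tested). The log2 fold change was -0.62 ± 0.19, with an unadjusted p of 0.00608 and an adjusted p of 0.99997 by the quasi-likelihood test in edgeR. Dag1, the dystroglycan gene, averaged 98.5 ± 13.0 CPM in the CFA libraries and 81.4 ± 4.88 CPM in the saline libraries.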

How the data were processed

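The authors deposited raw counts per gene together with the exon intervals and summed exon length, per the file headers. The submitters' processing notes name Trim Galore, HISAT2 2.2.1, featureCounts 2.0.1, SAMtools 1.13 and edgeR 3.32.1, and the build mm10. The treatment of strand and of multi-mapping reads is not given in the sources used here, so reads shared by close paralogues may have been dropped or divided. Per the labels' protocols, 10000 nuclei a library went through the Smart-seq V4 and Nextera XT kits with 9 PCR cycles.

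Groups and replicate numbers came from the sample titles. edgeR 4.0.16 (R 4.3.3) was run on all 24421 genes with TMM scaling, filterByExpr, the quasi-likelihood test and Benjamini-Hochberg adjustment over 13560 genes. Standard errors came from the F statistic, intervals from its degrees of freedom, and 2 was the prior count for log2 CPM. The fit was tested on simulated data. Libraries were not copies of each other (in 15 pairs the chi-square was at least 16.4 per degree of freedom). The floor of 3 counts covers counting error only.

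The members and lists were chosen with earlier results of these data known. Per-library values were to be given for members with an unadjusted p under 0.1, without overlap, or with the highest level per length of their role group. Dlg2, Dlg4, Dlgap3, Shank3, Homer2, Camk2a, Ppp3ca, Prkcb, Agap2 and single libraries of others were added after their values were seen. From each context list the 2 genes with the smallest p were named. Alternatives used RLE scaling, library size, other filters, DESeq2 1.42.0, limma-voom (limma 3.58.1), the likelihood ratio test, a replicate block and each library left out.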

Additional observations from a re-analysis of the deposited data

How the results depend on the processing

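In every setting tried 0 members had an adjusted p under 0.05, where 0 to 11 of all genes tested were called. Over the leave-one-out fits the count of members with an unadjusted p under 0.05 was 0 to 1 (Dlg3 without CFA replicate 2, Shank1 lower without saline replicate 1, Dlgap3 without saline replicate 3), against 2.11% to 6.75% of all genes, highest without saline replicate 3, where 5 genes were called; the count without overlap was 0 to 7 (13.4% to 22.5% of all genes at that size), and the median log2 fold change was -0.14 to 0.051. Without a low-count filter 1 member (Dlg3) was under 0.05, against 4.12% of all genes, and 9 genes were called over all genes. The count without overlap, 1 with TMM scaling, was 0 with library size alone, 0 without a low-count filter and 0 with at least 5 CPM in 3 libraries; in each, Anks1b was lost. Libraries with the same replicate number showed no shared deviations (correlations -0.079, 0.025 and -0.069), which does not show that they were handled unpaired. With the replicate block the median was -0.022 and 0 members passed, where 6 of all genes tested were called.

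Of 272 values of single members under other scalings, filters, tools or the block, 7 changed sign: Baiap2 (-0.0048 with RLE and -0.0048 with DESeq2), Nrxn3 (-0.0094 with RLE, -0.0094 with DESeq2 and -0.0025 with at least 5 CPM) and Shank3 (0.065 with limma-voom and 0.038 with the replicate block). With 1 library left out, 36 of 204 values changed sign, in 21 members, with these ranges: Camk2a (-0.18 to 0.28), Baiap2 (-0.062 to 0.12), Nlgn3 (-0.054 to 0.20), Nrxn2 (-0.13 to 0.23), Nrxn3 (-0.14 to 0.16), Dlgap4 (-0.15 to 0.15), Shank2 (-0.33 to 0.14), Prkca (-0.24 to 0.094), Dlg1 (-0.040 to 0.12), Ppp3ca (-0.13 to 0.17), Dlgap1 (-0.041 to 0.13), Prkcb (-0.14 to 0.075), Nlgn1 (-0.15 to 0.056), Lrrtm1 (-0.18 to 0.029), Lrrtm2 (-0.34 to 0.045), Shank3 (-0.42 to 0.56), Homer2 (-0.29 to 0.22), Kalrn (-0.24 to 0.15), Agap2 (-0.58 to 0.082), Nlgn2 (-0.14 to 0.16) and Lrrtm4 (-0.32 to 0.0091). The cause was not tested. The other 13 kept their sign, with these ranges: Shank1 (-0.57 to -0.025), Dlg2 (-0.42 to -0.011), Dlg4 (-0.41 to -0.18), Dlgap2 (-0.42 to -0.15), Camk4 (-0.25 to -0.018), Anks1b (-0.24 to -0.11), Lrrtm3 (-0.22 to -0.036), Camk2b (0.036 to 0.13), Camk2g (0.0066 to 0.13), Dlg3 (0.21 to 0.54), Dlgap3 (0.20 to 0.45), Lrfn2 (0.078 to 0.44) and Lrfn5 (0.068 to 0.24). Homer3, with 2 to 18 counts a library, was too shallow to compare.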

Other observations

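The receptors and the release machinery that face these scaffolds gave no calls either. Of 14 ionotropic glutamate receptor subunits and auxiliary proteins, 8 were higher and 6 lower by log2 fold change (median 0.0040). By the quasi-likelihood test in edgeR 0 were at an unadjusted p under 0.05, against 3.22% of all genes tested. Grin2b, an NMDA receptor subunit that binds Dlg scaffolds, was at 216, 268 and 151 CPM in the CFA libraries, against 258, 254 and 274 CPM in the saline libraries, giving a log2 fold change of -0.31 ± 0.20 (SE). CFA replicate 3, the lowest library for Grin2b, was also the lowest for Dlg2 and Dlg4. Grin1, the obligatory subunit, averaged 318 ± 52.7 CPM in the CFA libraries and 281 ± 28.2 CPM in the saline libraries (SD, n = 3 each).

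Of 20 genes of synaptic vesicle release, 11 were positive and 9 negative, with a median of 0.054. Pclo, a large scaffold of the presynaptic active zone, was at 237, 193 and 193 CPM in the CFA libraries, against 251, 251 and 381 CPM in the saline libraries. The groups did not overlap, as for 2 of the 20 genes, both lower in CFA (10%, against 7.51% of all genes tested). The log2 fold change of Pclo was -0.50 ± 0.20, with an unadjusted p of 0.0234 and an adjusted p of 0.99997 by the quasi-likelihood test in edgeR. Pclo was the only gene of this list at an unadjusted p under 0.05 (5%, against 3.22% of all genes tested). Cplx2, a regulator of vesicle fusion, averaged 134 ± 13.5 CPM in the CFA libraries and 105 ± 20.3 CPM in the saline libraries.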
